A study of Mus musculus with 6 samples.

Results

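Midbrain GABAergic neurons were followed through 8 genes: the GABA synthesis genes Gad1 and Gad2, the vesicular transporter gene Slc32a1, and the selector genes Gata2, Gata3, Tal1, Tal2 and Helt. They were chosen by platform gene symbol, and each had a single probe, so 8 of the 17865 genes with a probe, and 8 of the 31769 gene probes, are described here. The tissue was ventral midbrain of E14.5 mouse embryos. Each of 3 Pitx3-/- pools joined the RNA of 3 midbrains, and was run on a pair of dye-swapped arrays, 6 in all. The second sample on every array was a single reference RNA from 10 Pitx3+/+ midbrains of the same stage, so the spread of the wild type itself was not measured. The sources used here do not give the kind of Pitx3 allele, the strain or the sex of the embryos. In dissected tissue fewer cells of a type and less RNA per cell cannot be told apart.

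GABAergic neurons make GABA from glutamate with the decarboxylases encoded by Gad1 and Gad2, load it into vesicles with the Slc32a1 protein and take it up again with transporters of the Slc6 family. In the mouse midbrain, Helt and Gata2 act as new neurons leave the cell cycle and steer them to the GABAergic fate in place of the glutamatergic fate. The bHLH factors Tal2 and Tal1 and the zinc finger factor Gata3 follow, and Tal1 is needed for the GABAergic neurons that the anterior hindbrain contributes to the ventral midbrain. Gata2, Gata3 and Tal1 also serve blood cells, Gata2 and Tal1 also serve endothelium, and Gata2 and Gata3 also serve serotonergic neurons. Pitx3 itself is the homeobox factor of midbrain dopaminergic neurons, which share the ventral midbrain with these cells.

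The sequences upstream of Slc32a1, Gata2, Gata3 and Tal1 are shown because these 4 genes carry the results below, Slc32a1 as the gene above the reference in every pool and the others as genes that shared a pattern over the pools. Each is the 250 bases before the first annotated start, 5′ to 3′ on the gene's strand, from RefSeq (GRCm38.p6), with any GATA word in capitals (AGATAA or else AGATAG, and likewise TGATAA or else TGATAG, on either strand).
Slc32a1, chr2:158610508-158610757, plus strand: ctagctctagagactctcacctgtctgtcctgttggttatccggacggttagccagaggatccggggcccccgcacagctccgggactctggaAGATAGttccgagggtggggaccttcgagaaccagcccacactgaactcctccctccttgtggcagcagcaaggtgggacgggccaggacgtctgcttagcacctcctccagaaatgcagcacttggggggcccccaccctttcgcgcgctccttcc
Gata2, chr6:88193641-88193890, plus strand: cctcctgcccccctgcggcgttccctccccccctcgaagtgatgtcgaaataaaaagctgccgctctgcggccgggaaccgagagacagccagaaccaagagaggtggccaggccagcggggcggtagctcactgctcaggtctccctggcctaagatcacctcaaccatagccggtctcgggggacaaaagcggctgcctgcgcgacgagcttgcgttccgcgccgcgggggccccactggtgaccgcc
Gata3, chr2:9878601-9878850, minus strand: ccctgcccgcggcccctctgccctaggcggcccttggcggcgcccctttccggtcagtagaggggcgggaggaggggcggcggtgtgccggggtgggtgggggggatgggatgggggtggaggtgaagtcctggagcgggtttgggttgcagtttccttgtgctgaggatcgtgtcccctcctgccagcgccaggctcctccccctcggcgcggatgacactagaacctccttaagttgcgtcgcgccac
Tal1, chr4:115056176-115056425, plus strand: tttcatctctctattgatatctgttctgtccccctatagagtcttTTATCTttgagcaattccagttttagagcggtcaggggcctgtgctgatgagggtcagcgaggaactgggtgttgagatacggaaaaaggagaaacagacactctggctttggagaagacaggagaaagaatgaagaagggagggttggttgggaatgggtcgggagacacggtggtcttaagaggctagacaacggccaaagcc
Slc32a1 held a GATA word beginning 157 bases before its start, and Tal1 held one on the opposite strand beginning 205 bases before its first start. The windows shown for Gata2 and Gata3 held none, nor did the second annotated starts of Gata2 and Tal1. Over all 8 genes there were 10 windows, and 2 of them held a GATA word, against 26.5% of 32851 windows of the same length over all genes. The word CAGATG, an E-box bound by Tal factors, was found in 1 of the 10 windows (Gad2), against 14.4% of all windows. The word TAATCC, bound by Pitx factors, was found in 1 of 10 (Gad1), against 6.25%. The share of G and C ran from 48.8% to 74.0% in the 10 windows, beside a median of 52.4% over all windows. The word shares do not allow for this difference. They describe letters in short windows and were not set against binding data.

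Signal limits what can be read for these genes. A spot counted as above background when it exceeded its local background mean by 2 background SDs. Where both channels are not named, a gene or probe above background on all arrays was so in at least 1 channel of each array. Gad1, Slc32a1, Gata2, Gata3 and Tal1 were above background in both channels on all 6 arrays. Helt was above background in no channel of any array. Gad2 was above background on 0 arrays in the mutant and on 2 in the reference, and Tal2 on 1 in each, so the ratios of these 3 genes are printed below as read, and no fold is drawn from them. The Pitx3 probe was above background on no array and thus does not check the genotype of the pools. Across the arrays the median gene spot read 70.6 to 77.5 in Cy5 and 46.2 to 50.4 in Cy3, over median local backgrounds of 58 to 62 and 38 to 41. Pool 3 stood apart over the whole array. Over 31769 gene probes its ratios correlated at -0.21 with those of pool 1 and -0.19 with those of pool 2. Pools 1 and 2 correlated at 0.59. Without pool 3, 1543 probes passed the test described below, and without pool 1 or without pool 2 none did. The fit without pool 3 rests on pools 1 and 2 alone and favours genes whose ratio in pool 3 went the other way. Calls made without pool 3 are therefore given beside those from all pools, for the GABAergic genes and for most of the other genes named. Of those, Slc6a11, Slc38a1, Lmo4, Gabbr1, Nkx2-1, Slc6a9, Egr2, Hba-a1, Hba-x, Klf1, Pecam1, Stmn2 and Elavl4 did not pass without it either.

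The comparison addresses what becomes of the ventral midbrain without Pitx3, here of the GABAergic genes beside the dopaminergic ones. Slc32a1 was above the reference in all 3 mutant pools. Gata2, Gata3 and Tal1 were above it in pools 1 and 2 and slightly below it in pool 3. Gad1 lay close to the reference. All ratios are log2 of mutant over reference, averaged over both arrays of a pool, with the SD over 3 pools. An offset of 50 added to every spot draws ratios towards 0, especially at low intensity, so the folds given depend on it. With an offset of 0 Slc32a1 stood at 0.26, Gata2 at 0.23, Gata3 at 0.22 and Tal1 at 0.26. Not every gene moved this way, as Hba-a1 stood at 0.11 with an offset of 0 and at 0.125 in the main setting. None of the 8 genes reached an adjusted p under 0.05 in limma, and no probe of the array did (0.0% of 31769). An unadjusted p under 0.05 was reached by 1548 probes (4.87%), of which 783 were higher (2.46%) and 765 lower (2.41%). Of the 8 genes Slc32a1 alone was among them, as higher.

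**Figure D1:**
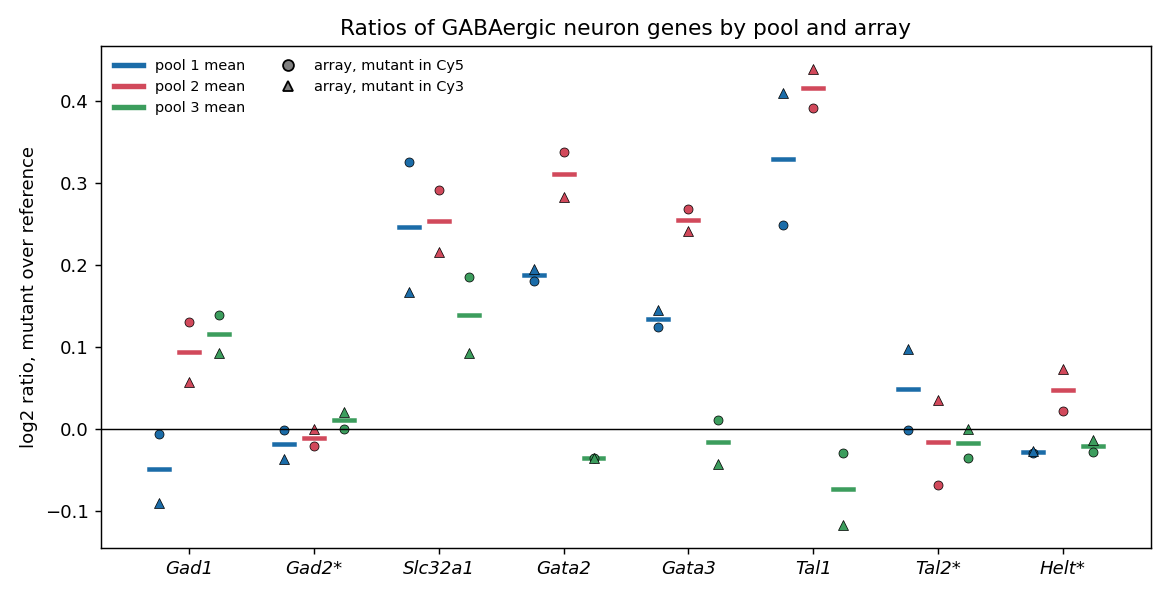
Log2 ratio of mutant over reference for the 8 genes. Bars are the means of pools 1, 2 and 3, circles and triangles the single arrays with the mutant in Cy5 and in Cy3, and an asterisk marks genes not above background in both channels on all 6 arrays. Slc32a1 lies above 0 on all 6 arrays, while Gata2, Gata3 and Tal1 lie above 0 in pools 1 and 2 and have pool 3 means below 0.

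Of the genes that handle GABA, Slc32a1 had log2 ratios of 0.25, 0.25 and 0.14 in pools 1, 2 and 3. On the single arrays they were 0.33, 0.29 and 0.18 with the mutant in Cy5, and 0.17, 0.22 and 0.09 with the mutant in Cy3. It was the only gene of the 8 above 0 in all 3 pools, as 12.9% of all gene probes were and 12.6% of those above background on all arrays. All 6 arrays gave a ratio above 0. So did 240 of the 13882 probes above background in at least 1 channel on all arrays (1.73%), and 1.28% of all 31769 probes. The mean was 0.21 ± 0.06 (SD, n = 3), a 1.16-fold level in the mutant pools. In limma its unadjusted p was 0.000624 and its adjusted p 0.66. With median centring and no loess the ratio was 0.12, and the same setting also lowered Tal1 to 0.14, Gata2 to 0.084 and Gata3 to 0.074. Of the 13882 probes above background, 0.108% had a higher mean ratio.

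The normalised log2 intensity of Slc32a1 was 8.56, 8.42 and 8.28 in mutant pools 1, 2 and 3, against 8.31, 8.17 and 8.15 for the reference on the same arrays. The lowest mutant value and the highest reference value overlapped across arrays, while within each pool's own arrays the mutant was higher. The reference values come from the same RNA, so their differences show how much a spot varies between arrays, which the ratio within an array takes out.

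Gad1, which encodes the decarboxylase for the general supply of GABA, had log2 ratios of -0.05, 0.09 and 0.12 in pools 1, 2 and 3. Pool 1 was below 0 on both arrays, and pools 2 and 3 were above 0 on both. The mean was 0.05 ± 0.09 (SD, n = 3), less than the spread between pools, with an adjusted p of 0.91 in limma. Its sign was not stable, at -0.027 when arrays were centred on their medians and not normalised by loess. Its normalised log2 intensity was 8.12, 8.27 and 7.97 in the mutant pools, against 8.17, 8.18 and 7.85 for the reference. Gad1 minus Slc32a1 was -0.295, -0.16 and -0.0228 in pools 1, 2 and 3, so the ratio of the transporter stood above that of the enzyme in each pool, with the widest gap in pool 1 and almost none in pool 3. Gad2, the decarboxylase tied to synaptic vesicles, had ratios of -0.02, -0.01 and 0.01 at raw signals of 66.6 to 70.1 for the mutant in Cy5, over local backgrounds of 58 to 59.

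Among the selector genes, Gata2 had log2 ratios of 0.19, 0.31 and -0.04 in pools 1, 2 and 3. Its 4 arrays of pools 1 and 2 read between 0.18 and 0.34, and both arrays of pool 3 read -0.04. The mean was 0.15 ± 0.18 (SD, n = 3), with an adjusted p of 0.91 in limma. Its normalised log2 intensity was 7.44, 7.48 and 7.06 in mutant pools 1, 2 and 3, against 7.25, 7.17 and 7.09 for the reference. The mutant values of pools 1 and 2 exceeded every reference value, and the mutant value of pool 3 lay below every reference value.

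Gata3, which acts after Gata2 in this lineage, had log2 ratios of 0.13, 0.25 and -0.02. Its pool 3 arrays read 0.01 with the mutant in Cy5 and -0.04 with the mutant in Cy3. The mean was 0.12 ± 0.14 (SD, n = 3), with an adjusted p of 0.91 in limma. Its normalised log2 intensity was 6.92, 7.18 and 6.79 in the mutant pools, against 6.78, 6.93 and 6.81 for the reference. The mutant and reference values overlapped across arrays, and only within the arrays of pools 1 and 2 did the mutant stand clearly higher.

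Tal1, the bHLH partner of the GATA factors, spanned the widest range, with log2 ratios of 0.33, 0.42 and -0.07 in pools 1, 2 and 3. Its arrays of pools 1 and 2 read between 0.25 and 0.44, and those of pool 3 read -0.03 with the mutant in Cy5 and -0.12 with the mutant in Cy3. The mean was 0.22 ± 0.26 (SD, n = 3), with an adjusted p of 0.91 in limma. Its normalised log2 intensity was 8.51, 8.81 and 7.90 in the mutant pools, against 8.18, 8.39 and 7.97 for the reference. Mutant values of pools 1 and 2 exceeded all 3 reference values, and the mutant value of pool 3 lay below all 3. In pool 3, 95% of the probes above background had a higher ratio than Tal1, whereas over pools 1 and 2 only 0.0504% did.

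**Figure D2:**
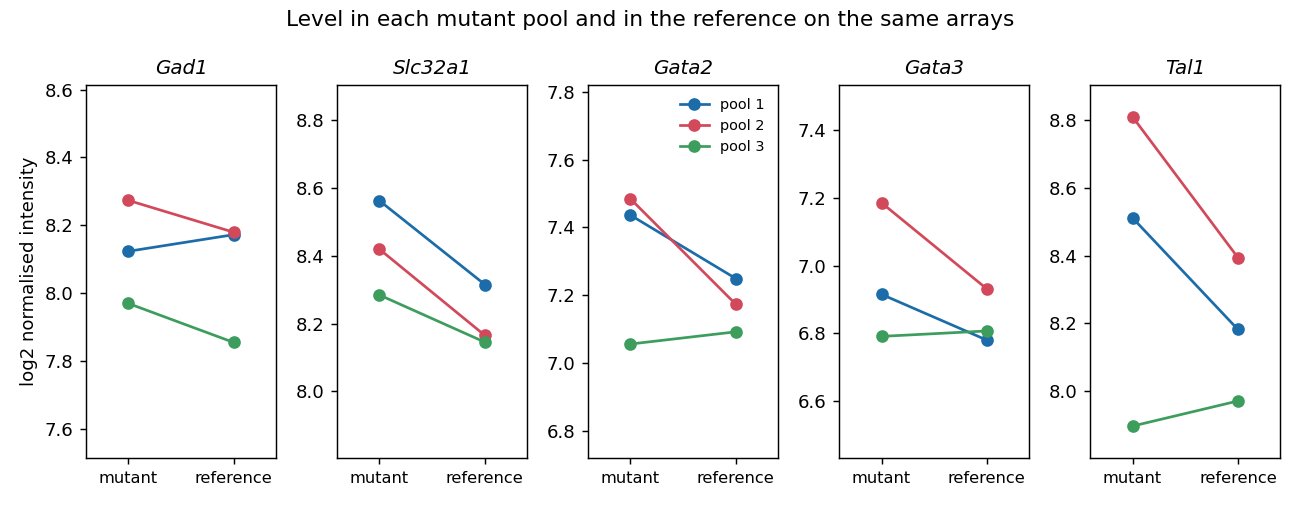
Normalised log2 intensity of the 5 genes above background on all arrays, in each mutant pool (left) and in the reference RNA on the same arrays (right). Lines join the values of a pool's arrays, and each panel has its own axis of equal span. For Slc32a1 the 3 lines all fall towards the reference, and for Gata2, Gata3 and Tal1 the pool 3 line does not.

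The selector genes Gata2, Gata3 and Tal1 thus shared a pattern over the pools. All 3 were above 0 on every array of pools 1 and 2 and below 0 in pool 3, a pattern described after the values were seen. It held for 4.26% of all gene probes and for 6.78% of those above background on all arrays. Nkx2-2 (0.13, 0.21 and -0.08) and Neurog2 (0.125, 0.055 and -0.04), factors near the GABAergic domains, had the same signs over the pools. Here and below, other genes are matched on the signs of their pool means, a looser match than the pattern on single arrays. The share of all probes with these signs was not counted, so such matches only describe the genes named. Over 6 arrays the ratios of Gata2 and Gata3 differed by a root mean square of 0.0493, those of Gata2 and Tal1 by 0.119, and those of Gata3 and Tal1 by 0.157. Slc32a1 lay at 0.125 from Gata2 and at 0.123 from Gata3, nearer to Gata3 than Tal1 did. Gad1 lay farthest from Tal1, at 0.317. Slc32a1 exceeded Gata2, Gata3 and Tal1 by 0.174, 0.155 and 0.212 in pool 3, whereas Tal1 exceeded it in pools 1 and 2.

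With pool 3 left out, Slc32a1, Gata2, Gata3 and Tal1 rose and passed limma's test over all probes. That fit rests on pools 1 and 2 alone, set against the same reference RNA. Pool 3 is the pool in which Gata2, Gata3 and Tal1 lay below 0. Leaving it out therefore favours them, and their calls are no separate support for a change. Over pools 1 and 2 the mean log2 ratios of Slc32a1, Gata2, Gata3 and Tal1 were 0.25, 0.25, 0.19 and 0.37. These are 1.19-fold, 1.19-fold, 1.14-fold and 1.29-fold. The adjusted p-values were 0.00291, 0.0114, 0.0194 and 0.00291. In that fit 638 probes passed as higher, 2.01% of all gene probes, against which the count is 4 of the 8 genes. As lower 905 probes passed (2.85%), and none of the 8 genes was among them. Without pool 1 or without pool 2 no gene of the 8 passed. Gad1 stood at 0.02 over pools 1 and 2, with an adjusted p of 0.86 in limma. When single arrays were fitted with a term for the dye and the pool as random block, Slc32a1 alone of the 8 genes passed in limma (adjusted p = 0.039), where 9 probes passed as higher (0.0283%). Both arrays of a pool enter that fit although they hold the same extracts.

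**Figure D3:**
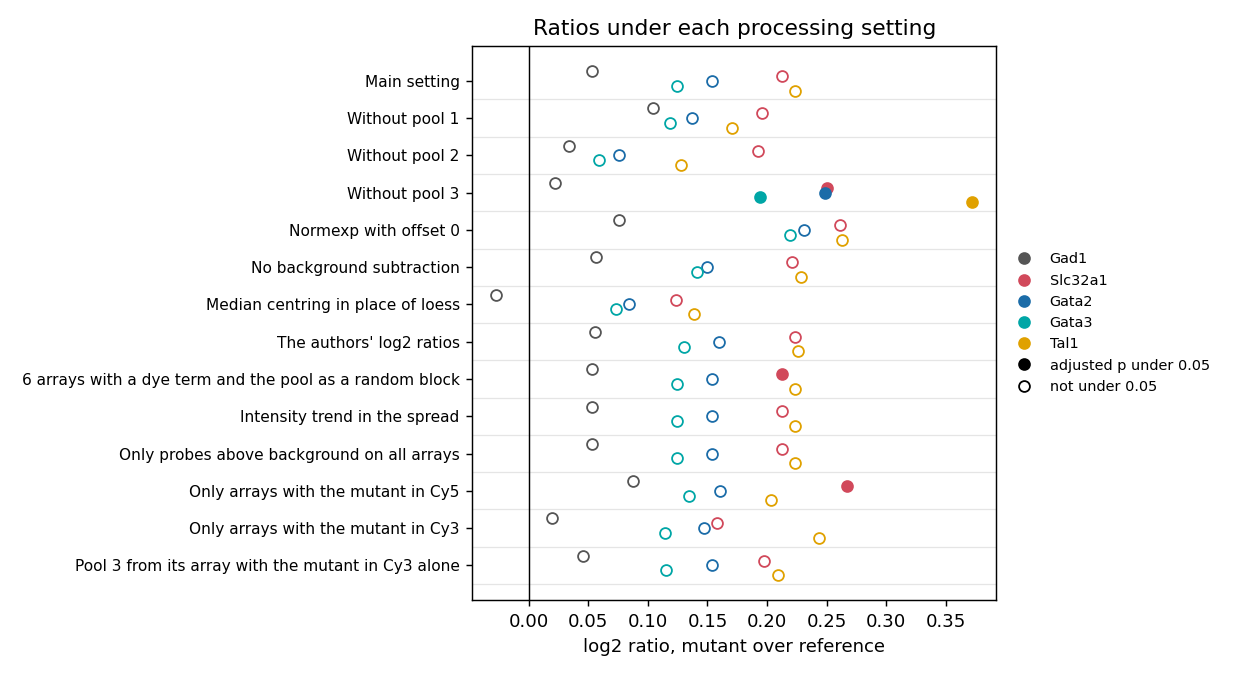
Log2 ratio of mutant over reference of the 5 genes above background on all arrays under the main setting and each alternative. Filled circles have an adjusted p under 0.05. Slc32a1, Gata2, Gata3 and Tal1 stay above 0 in every row, Gad1 crosses 0 with median centring, and the circles of these 4 genes fill together only without pool 3.

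Tal2 and Helt gave no usable ratio. Tal2, a selector of midbrain GABAergic neurons, had log2 ratios of 0.05, -0.02 and -0.02, and Helt, which represses the glutamatergic fate, had -0.03, 0.05 and -0.02. Helt read 60.6 to 61.5 for the mutant in Cy5 over local backgrounds of 58 to 59. Neither value says whether these genes are expressed at this stage. Over all 8 genes, those at background included, the median log2 ratio was 0.09, beside a median of -8.3e-05 over all gene probes.

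Other genes of GABA handling had ratios on both sides of 0. Of 9 genes of GABA reuptake and metabolism, 7 were measured, none passed over all probes, and their median log2 ratio was -0.0045. Slc6a11, a GABA reuptake transporter of astrocytes, stood at 0.10, 0.06 and 0.12 in the 3 pools and was above 0 on all 6 arrays. Its mean was 0.09, with an unadjusted p of 0.00205 and an adjusted p of 0.91 in limma. Its second probe was not above background, and without pool 3 its adjusted p was 0.0545 in limma. Slc6a12, another GABA transporter gene, was the only other gene of the list above 0 in all 3 pools, at 0.01, 0.02 and 0.0072. Slc38a1, a glutamine transporter, stood at -0.05, -0.04 and -0.02. Of 18 genes of GABA receptor subunits and their scaffold, 14 were measured, and none had an unadjusted p under 0.05. The receptor probes ranged from -0.04 to 0.01, and 3 of them were above background on all arrays, among them the receptor subunit gene Gabbr1 at 0.06, 0.02 and -0.04.

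The cofactors that join GATA and Tal proteins in complexes were all measured (12 genes), with a median of 0.0031 and none at an unadjusted p under 0.05. Lmo1, which encodes a LIM-only bridging protein, stood at -0.17, -0.16 and 0.02 in pools 1, 2 and 3, the opposite sign to Tal1 in each pool. Lmo4, a related gene, stood at 0.02, 0.03 and 0.03. By pool means, the brightest probes of Ldb1 and Tcf3 of the same list had the sign of Tal1 in each pool. They stood at 0.09, 0.11 and -0.13 for Ldb1 and 0.07, 0.02 and -0.04 for Tcf3. Each was above 0 on 3 of 6 arrays, whereas Tal1 was above 0 on 4. Both genes have 3 probes, and the dimmer ones are not given. Among 10 measured factors of progenitors and neurons near the GABAergic domains, 3 had an unadjusted p under 0.05, all higher, and none passed over all probes. Nkx6-1, a homeobox factor of ventral progenitors, stood at 0.16, 0.16 and 0.04, and Nkx6-2 at 0.43, 0.42 and 0.01. A dimmer Nkx6-2 probe stood at 0.11, 0.04 and 0.01. Lhx5, a LIM homeobox gene, stood at 0.14, 0.07 and 0.01. The ratio of Nkx6-2 depended on the dye, at 0.041 over arrays with the mutant in Cy5 and 0.53 over those with it in Cy3. Without pool 3 Nkx6-1, Nkx6-2 and Lhx5 rose and Lmo1 fell in limma (adjusted p = 0.0076, 0.000609, 0.041 and 0.00801). Of 10 neuropeptide and calcium binding genes of GABAergic subtypes, 1 had an unadjusted p under 0.05 as higher (Penk, described under other observations) and 2 as lower. Sst, for somatostatin, was above background on all 6 arrays and stood at 0.24, 0.10 and 0.0025. Tac1, which encodes substance P, stood at -0.17, -0.25 and -0.03, and Calb1, for calbindin, at -0.15, -0.15 and 0.01. Reln, for reelin, stood at -0.21, -0.12 and -0.01, while its other 4 probes lay between -0.04 and 0.01. Without pool 3 Tac1, Calb1 and this Reln probe fell in limma (adjusted p = 0.00891, 0.0086 and 0.017).

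Forebrain GABAergic neurons use Dlx factors in place of the GATA and Tal factors, and Dlx1 and Dlx2 stood on the other side of 0 in pools 1 and 2. Dlx1 had log2 ratios of -0.90, -0.94 and 0.05 in pools 1, 2 and 3, and Dlx2 of -0.46, -0.42 and 0.02. Pool 3 was near 0 for both. Without it both fell in limma, Dlx1 by 0.92 (adjusted p = 4.4e-05) and Dlx2 by 0.44 (adjusted p = 0.000645), with adjusted p-values below those of all 8 GABAergic genes. Of the 10 measured forebrain genes none passed over all probes, 2 had an unadjusted p under 0.05 as lower, and Gsx1, Gsx2 and Sp8 were above background on no array. Nkx2-1, of ventral forebrain, stood at -0.01, -0.06 and -0.03. Among 9 glutamatergic genes, which mark the fate opposed to the GABAergic fate, Slc17a6 stood at -0.21, -0.19 and -0.05 and Lhx9 at -0.81, -0.42 and -0.12. Of these 9, 2 had an unadjusted p under 0.05 as lower and none passed over all probes. The median log2 ratio of the 9 was -0.0044. Barhl1 of this list, above background on all arrays, stood at 0.20, 0.03 and -0.15, with the signs of Gata2, Gata3 and Tal1. The dimmer probe of Barhl1 is not given. Without pool 3 Slc17a6 and Lhx9 fell in limma (adjusted p = 0.00537 and 0.015). The mean of Slc17a6 over arrays with mutant RNA in Cy3 was 0.022. The second Lhx9 probe stood at -0.49, -0.25 and -0.002, and the third was not above background.

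**Figure D4:**
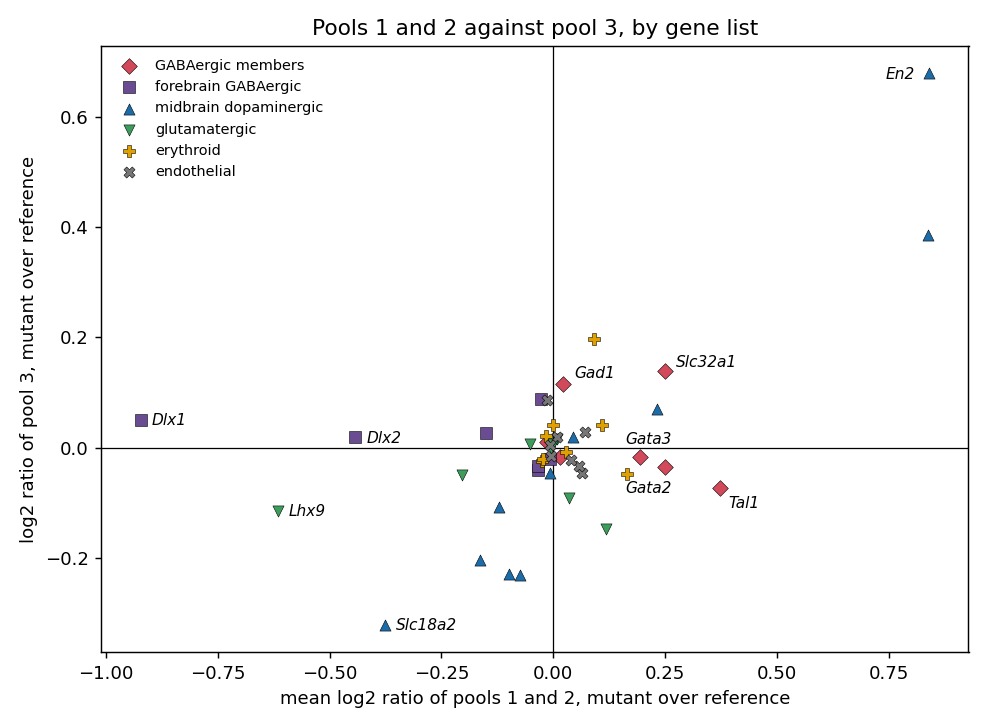
Mean log2 ratio of pools 1 and 2 (horizontal axis) against that of pool 3 (vertical axis), both mutant over reference, for genes of 6 lists that were above background on at least 1 array. Gata2, Gata3 and Tal1 lie right of 0 and just below it, Dlx1 and Dlx2 lie left of 0 and just above it, and Slc32a1 and En2 lie above 0 on both axes.

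Markers of other cells that use the same genes are given beside these values. For blood, 9 of 12 erythroid genes were measured and 6 were above background on all arrays, with median log2 ratios of 0.01, 0.021 and 0.0064 in pools 1, 2 and 3. Their single genes varied between pools. Hba-a1, an alpha-globin gene, stood at 0.20, -0.02 and 0.20, and Hba-x, an embryonic globin gene, at 0.02, 0.20 and 0.04. Klf1, an erythroid factor, stood at -0.02, -0.03 and -0.02. Gata1, the erythroid GATA factor, had -0.02, 0.02 and 0.04. Hbb-y, an embryonic globin gene, was above 0 in pools 1 and 2 and below it in pool 3, as Gata2, Gata3 and Tal1 were, with its 2 probes at 0.11, 0.22 and -0.05 and at 0.13, 0.27 and -0.03, and the dimmer probe rose without pool 3 (adjusted p = 0.024 in limma). The mean ratios of the 9 erythroid genes ranged from -0.0244 to 0.125, and none had an unadjusted p under 0.05. All 8 measured endothelial genes were above background, with medians of 0.02, 0.02 and -0.0048 and mean ratios from -0.00885 to 0.057, and Pecam1 stood at 0.08, 0.06 and 0.03. The endothelial genes Tie1 (0.05, 0.08 and -0.05), Flt1 (0.09, 0.03 and -0.03) and Kdr (0.02, 0.06 and -0.02) had the same signs over the pools as Gata2, Gata3 and Tal1. The dimmer probes of Flt1 and Kdr are not given. Of 6 serotonergic genes 5 were measured, and 2 had an unadjusted p under 0.05, both as higher. Above 0 in all 3 pools were 4 of the 5, as 12.9% of all gene probes were. Of these 4, Htr1a and Gchfr were above background on no array. Ddc, also on the dopaminergic list, stood at 0.04, -0.05 and -0.05. Tph2, for serotonin synthesis, stood at 0.12, 0.19 and 0.10 (unadjusted p = 0.00203) and rose without pool 3 (adjusted p = 0.018 in limma). Slc6a4, the serotonin transporter gene, stood at 0.16, 0.25 and 0.07 (unadjusted p = 0.00725) and above 0 on all 6 arrays, with spots above background on 4 arrays in the mutant and on 0 in the reference. For the hindbrain 7 of 9 genes were measured. Hoxb4, Hoxa3 and Egr2 were above background on all arrays, at -0.04, -0.06 and 0.03 for Hoxb4, -0.05, 0.02 and 0.0062 for Hoxa3 and 0.01, 0.04 and 0.02 for Egr2, while Hoxa2, Hoxb1, Hoxb2 and Hoxb3 were so on no array. Slc6a5, the marker of glycinergic neurons, which also use Slc32a1, was above background on no array. Nor was the glycine receptor gene Glra1, and Slc6a9 stood at 0.12, 0.04 and -0.04. The part of these cells in the ratios of the GABAergic genes was not tested.

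The neurons as a whole and the dopaminergic neurons serve as a measure of scale. Of 9 measured pan-neuronal genes 2 had an unadjusted p under 0.05 as higher, with Stmn2 at 0.02, 0.09 and 0.08 and Elavl4 at 0.04, 0.03 and 0.04, and the list median was 0.02. Other Elavl4 probes stood at -0.04 and -0.0028. The pan-neuronal genes Elavl3 (0.16, 0.12 and -0.13) and Tubb3 (0.10, 0.04 and -0.09) had the signs of Gata2, Gata3 and Tal1 over the pools. Of 12 dopaminergic genes 3 had an unadjusted p under 0.05 as higher and 5 as lower. In size the mean ratio of Slc32a1 lay below those of En2 (0.79), En1 (0.69) and Slc18a2 (-0.36). It lay above those of Foxa2 (0.18), Th (-0.14) and Nr4a2 (-0.13). Slc6a3 (-0.12) was above background on 0 arrays in the mutant and on 2 in the reference, so its size cannot be ranked. Without pool 3 En2 rose and Slc18a2 and Aldh1a1 fell in limma (adjusted p = 0.000357, 0.000645 and 0.014). Aldh1a1, of a dopaminergic subset, stood at -0.13, -0.20 and -0.20 and gave no mutant spot above background.

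Genes most like the GABAergic ones were sought by the smallest root mean square difference over the 6 arrays, among 11466 named probes above background on all arrays. Closest to Slc32a1 were Cbln1 (0.0364), which encodes a synaptic organiser, Bloc1s2 (0.0471), As3mt (0.0752), Ttyh1 (0.0757) and the forkhead gene Foxa1 (0.0776). Bloc1s2 and As3mt lie on chromosome 19, as Pitx3 does, while Slc32a1 lies on chromosome 2. Cbln1 stood at 0.28, 0.26 and 0.18, and its dimmer probe at 0.09, 0.10 and 0.05. Closest to Gata2 were Hbb-y (0.0604), Sulf1 (0.061), Psme3 (0.0698), Tecr (0.0718) and the forkhead gene Foxa2 (0.0726). Closest to Gata3 were Sulf1 (0.0313), Hbb-y (0.044), Psme3 (0.0471), Samd10 (0.0525) and Col4a1 (0.0588), so 3 names stand on both lists. All the genes named in this search rose without pool 3 in limma, with adjusted p-values from 0.00237 to 0.04. They were picked on the same arrays for likeness to genes that passed without pool 3, so these calls follow from the choice and add no separate result. Sulf1, a heparan sulfatase gene of the floor plate among other places, stood at 0.14, 0.24 and 0.0076. For Samd10 and Col4a1 dimmer probes did not share the pattern, at -0.014 for Samd10 and between -0.014 and 0.015 for Col4a1.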

How the data were processed

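The 3 Pitx3-/- pools (6 dye-swapped arrays) were compared with the single reference RNA. Per the file headers, the deposited scanner values are spot intensity and local background intensity; per the labels' protocols, an Agilent scanner and ImaGene were used. The authors' derived intensity values had print-tip loess without background subtraction, and the deposited series matrix holds their log2 ratios, mutant over reference, which match the derived values (largest difference 4.98e-06). The sources used here give no genome build and no test.

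Scanner intensities were corrected with normexp (offset 50), normalised by global loess (span 0.3, 3223 control spots at weight 0 and then left out), turned to mutant over reference and averaged per pool in R 4.3.3 with limma 3.58.1. Whether pool values differ from 0 was tested with limma's lmFit and eBayes, with 2 residual degrees of freedom and 2.74 prior ones, and Benjamini-Hochberg adjustment over 31769 probes, at an adjusted p under 0.05. Intensities per channel are log2 values after loess and Aquantile scaling. The steps were tested on simulated data. Names came from the platform table, 26000 probes with a symbol, of which 2865 were updated through RefSeq. Lists use the brightest probe of each gene. The members, the 14 other lists (140 genes) and the tests were chosen with earlier results of these data known. All 8 members are named, with up to 3 genes of each other list that were above background on all arrays and had the lowest p (p under 0.1, a limit set after the values were seen, or else the first) and 5 genes most like each of Slc32a1, Gata2 and Gata3. Gata1, Slc6a12, Slc6a4, Hoxb4, Hoxa3, Tie1, Flt1, Kdr, Elavl3, Tubb3, En1, Foxa2 among the dopaminergic genes, Th, Nr4a2, Slc6a3 and the genes above background on no array were named outside this rule after their values were seen. The same holds for Ldb1, Tcf3, Nkx2-2, Neurog2, Sst, Barhl1 and Ddc.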

Additional observations from a re-analysis of the deposited data

Results flagged for a closer look

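In pool 3, the array that carried mutant RNA in Cy5 was the dimmest in Cy3, the channel of the reference RNA. Its median Cy3 signal over gene probes was 46.2 and the next lowest array's was 49.1, which is 0.672 of the range over 6 arrays. Its median Cy3 background was 38 and the next lowest 40, which is 0.667 of that range. Both shares are above Dixon's critical value of 0.625. Of 14 quantities examined in this way, 8 were the ratios of the GABAergic genes over the 6 arrays, and none of those was far enough from its neighbours to exceed it. About 1 in 20 groups does so by chance. With pool 3 taken from its other array alone, a setting chosen after seeing the data, the log2 ratios were 0.20 for Slc32a1, 0.15 for Gata2, 0.11 for Gata3, 0.21 for Tal1 and 0.046 for Gad1, and no probe passed.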

How the results depend on the processing

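Slc32a1, Gata2, Gata3 and Tal1 stayed above 0 under all 13 alternatives, with ranges of 0.12 to 0.27, 0.076 to 0.25, 0.059 to 0.22 and 0.13 to 0.37. Leaving out each pool in turn gave from 0 to 1543 probes past the threshold and from 0 to 4 of the 8 genes, the higher counts without pool 3. It gave 0.19 to 0.25 for Slc32a1, 0.076 to 0.25 for Gata2, 0.059 to 0.19 for Gata3 and 0.13 to 0.37 for Tal1. Tal2 ranged from -0.017 to 0.016, Helt from -0.024 to 0.013 and Gabbr1 from -0.011 without pool 1 to 0.041 without pool 3. Counts of 0 probes in the main setting became 18 with the pool as a random block (1 of the 8 genes, Slc32a1 at 0.21), 11 with an intensity trend, 312 with only the arrays that had the mutant in Cy5 (1 of the 8 genes, Slc32a1 at 0.27) and 430 with only those that had it in Cy3. With an offset of 0, without background subtraction, with median centring, with the authors' log2 ratios and with dim probes left out the count was 0. With median centring the sign turned for Gad1 (-0.027), Tal2 (-0.063), Helt (0.022), Lmo4 (-0.053), Gabbr1 (-0.018), Slc6a9 (-0.039), Pecam1 (-0.062), Stmn2 (-0.042) and Elavl4 (-0.053). On arrays with the mutant in Cy5 it turned for Tal2 (-0.035), Slc38a1 (0.0028) and Slc6a9 (-0.033). On those with it in Cy3 it turned for Helt (0.011), Lmo4 (-0.098), Gabbr1 (-0.0016), Slc17a6 (0.022), Egr2 (-0.014) and Elavl4 (-0.058). Helt, never above background, also stood at 0.30 with an offset of 0, 0.025 without background subtraction, 0.0032 in the authors' ratios and 0.0021 with pool 3 from its array with the mutant in Cy3 alone, where Lmo4 stood at -0.0057. The causes were not tested. No paired analysis was possible because the reference is a single RNA. Gad2, Tal2 and Helt, at or near background, limit what the arrays show of these genes.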

Other observations

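Penk, the preproenkephalin gene of some GABAergic neurons, had log2 ratios of 0.10, 0.09 and 0.04 in pools 1, 2 and 3, with an unadjusted p of 0.00496 and an adjusted p of 0.91 in limma. It exceeded background on 5 arrays in the mutant and on 4 in the reference, and was chosen here after its values were seen. The only spot of Tal2 above background was that of the pool 3 array with the mutant in Cy3, where it read 64.8 for the mutant and 113 for the reference. On the other arrays it read 47.9 and 48.6 for the mutant in Cy3 and 65.1 and 67.4 for the reference in Cy5. The spot was brighter in both channels of that array than on the others that share its dye assignment.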
